A study of Mus musculus with 6 samples.

Results

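Described here are 10 genes of secreted, membrane and metabolic proteins, out of 21999 counted in cultured mouse cells labelled lung microvascular endothelial cells. They are *C1qtnf7*, *Fam180a*, *Gpx3*, *Thsd7a*, *Bace2*, *Dpep1*, *Hs3st1*, *Rab3c*, *Ctsh* and *Bckdhb*. All were chosen by their measured difference between the libraries of the 2 genotypes compared, so that difference is given as a description and without a test. RNA of 6 libraries was sequenced, 3 of *Ptprz1*+/+ cells and 3 of *Ptprz1*-/- cells, labelled as a knockout of this receptor-type tyrosine phosphatase. Mice of both genotypes were of the SV129/B6 strain, aged between 3 and 8 weeks and untreated, and each library came from a fresh isolation that pooled the lungs of 2 to 5 animals. The lung cells were grown to confluence before they were separated on beads carrying an antibody to CD31.

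A cell handles the products of these genes by different routes. Secreted proteins and cell-surface enzymes pass through the endoplasmic reticulum and the Golgi apparatus, where heparan sulfate chains are also built and sulfated, and small GTPases of the Rab family steer the vesicles that carry cargo to the membrane. Lysosomal proteases leave the same route for the lysosome, and enzymes of amino acid breakdown are imported into mitochondria. In the lung, the endothelium carries heparan sulfate and peptidases on its surface, while fibroblasts and mesothelial cells supply much of the secreted protein.

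Between 14496881 and 17709663 reads per library were counted on genes, and the 10 genes held between 13 and 4261 reads in each library. The counts of *Ptprz1* itself were 197, 1837 and 508 in the *Ptprz1*+/+ libraries, numbered 1 to 3, against 1138, 1320 and 895 in the others, so the targeted gene did not tell the genotypes apart and a direction rests on the labels. The endothelial label was checked with 12 defining genes. Their summed level, as CPM (reads relative to the library total scaled by edgeR's TMM factors), was 131, 95.8 and 695 in the *Ptprz1*+/+ libraries and 86.5, 132 and 270.1 in the libraries labelled *Ptprz1*-/-, whereas 10 fibroblast genes summed to between 20495 and 34387. *Eng* alone held 101, 59.4 and 142 CPM of the former sums and 59.6, 115 and 90.5 CPM of the latter. *Pecam1*, the gene of CD31, had 63, 80 and 1443 reads in the *Ptprz1*+/+ libraries and 22, 22 and 491 in the others. Both replicate 3 libraries therefore stood apart by their endothelial RNA, and results are also given without them. In replicates 1 and 2 of both genotypes the endothelial label was only weakly borne out. A lower share of a cell type and less RNA per cell cannot be told apart in such bulk counts.

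**Figure D1:**
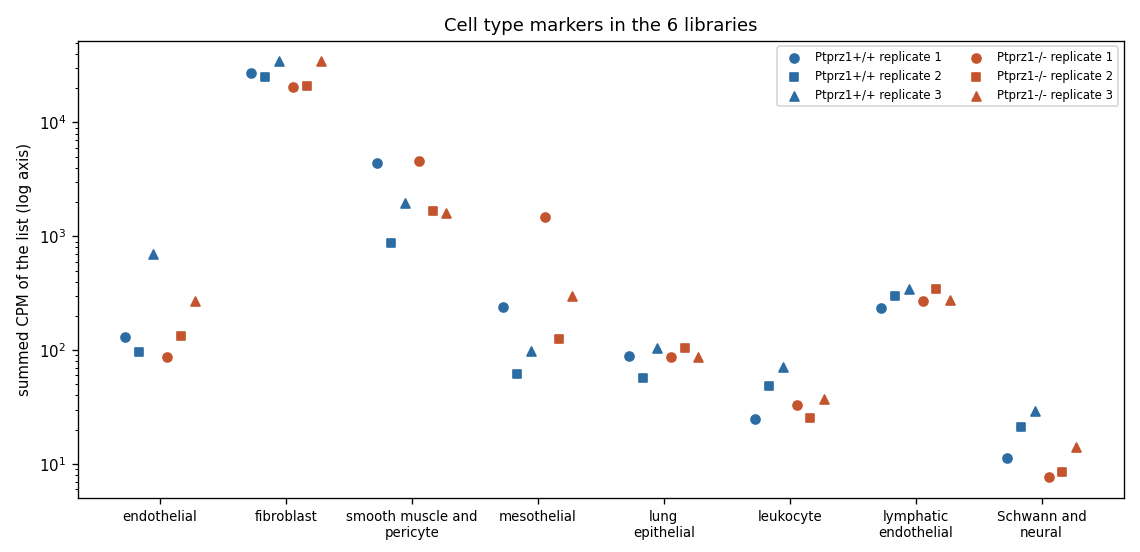
Summed CPM of 8 marker lists (log axis) in the 6 libraries, 1 point per library, blue for *Ptprz1*+/+ and orange for *Ptprz1*-/-. Endothelial sums were highest in replicate 3 of each genotype, the mesothelial sum was highest at 1489 in *Ptprz1*-/- replicate 1, and in each list the ranges of the genotypes overlapped.

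Of the 10 genes, 7 were lower and 3 were higher in the libraries labelled *Ptprz1*-/-. In each of the 10, the 3 libraries of one genotype lay beyond the 3 of the other. This held for 991 of the 13609 genes tested (7.28%), of which 483 (3.55%) were higher and 508 (3.73%) lower. Because the genes had been selected on this contrast, nothing is read from their count. The median of their log2 differences (*Ptprz1*-/- minus *Ptprz1*+/+) was -1.19 beside -0.0047 over all genes tested. With edgeR (quasi-likelihood, adjusted p under 0.05) 0 of the 10 and 0 of all genes were called (0%), although 366 genes (2.69%) had an unadjusted p under 0.05. DESeq2's Wald test called 31 of all genes (0.194%), the 10 among them. Nothing is read from either tool's count of the 10, for the same reason.

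**Figure D2:**
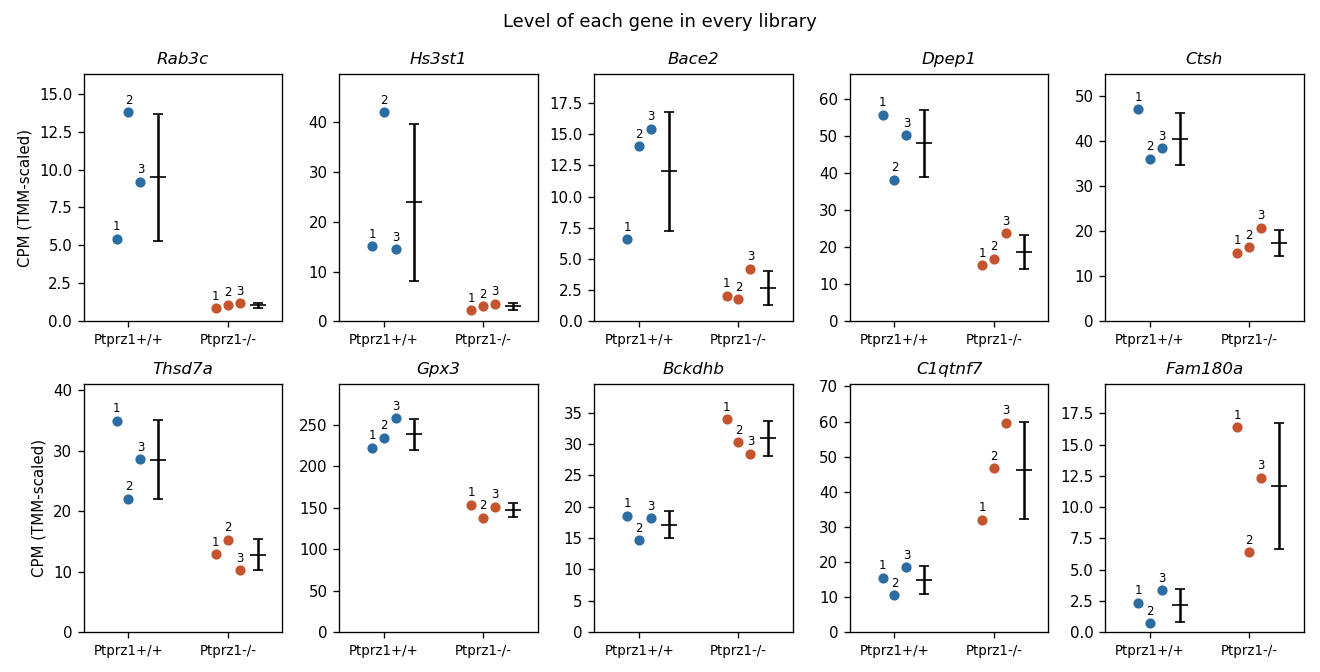
Level of the 10 genes in each library, in TMM-scaled CPM on linear axes that start at 0. Points are libraries with their replicate number, and the bar beside them gives the mean ± SD of the 3 libraries. In every panel the genotypes do not overlap, with the widest gap relative to the lower group in *Rab3c*.

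Among the genes of secreted proteins, *C1qtnf7* and *Fam180a* were higher in the libraries labelled *Ptprz1*-/- and *Gpx3* was lower. *C1qtnf7* (chromosome 5 of GRCm38, 43515569 to 43618817) encodes a secreted protein of the C1q/TNF family, to which adiponectin also belongs. Its level was 15.5, 10.4 and 18.5 CPM in the *Ptprz1*+/+ libraries and 32.0, 46.7 and 59.7 CPM in the others. The lowest library labelled *Ptprz1*-/- stood 1.73-fold above the highest *Ptprz1*+/+ library, and the mean was 3.11-fold higher. On the log2 scale the difference was 1.64 with a standard error of 0.30, and between 1.41 and 1.85 with 1 library left out at a time.

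*Fam180a* (chromosome 6, 35312746 to 35326141) encodes a small protein predicted to be secreted, whose function is little known. Only 39, 13 and 53 reads were counted on it in the *Ptprz1*+/+ libraries, compared with 264, 93 and 187 in the others. This corresponds to 2.36, 0.715 and 3.34 CPM against 16.4, 6.38 and 12.4 CPM. The difference was the largest among the 3 higher genes, 2.45 on the log2 scale with a standard error of 0.62, and it varied from 2.03 without *Ptprz1*+/+ replicate 2, the library with 13 reads, to 2.93 without *Ptprz1*+/+ replicate 3. In both genotypes replicate 2 was the lowest library, so *Fam180a* also varied within the groups, by 4.68-fold and 2.57-fold.

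Mesothelial marker RNA, which shares its extremes with *Fam180a*, is given beside it. The 8 mesothelial genes summed to 240, 61.5 and 98.9 CPM in the *Ptprz1*+/+ libraries and to 1489, 126 and 302 CPM in those labelled *Ptprz1*-/-, and the log2 difference was above 0 in 7 of the 7 genes tested, of which 0 separated the groups. *Muc16* was at 0 in 2 *Ptprz1*+/+ libraries. The sum was lowest in *Ptprz1*+/+ replicate 2 and highest in *Ptprz1*-/- replicate 1, the same libraries in which *Fam180a* was lowest and highest, but the order between them differed. *Ptprz1*+/+ replicate 1 had a higher mesothelial sum than *Ptprz1*+/+ replicate 3 and *Ptprz1*-/- replicate 2, and less *Fam180a* than both. Without *Ptprz1*-/- replicate 1, the log2 difference of *Fam180a* was 2.13, and the part of the mesothelial cells in it was not tested.

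The promoters of these 2 higher genes are shown because they are the ones among the promoters of these genes that held an E-box of the letters CATCTG, the form bound by Hand and Twist factors. The sequences are RefSeq's for GRCm38.p6, 250 bases before to 50 after the start site, and capitals mark the match on either strand. That of *C1qtnf7* covers chr5:43515319-43515618 on the plus strand, and that of *Fam180a* chr6:35326092-35326391 on the minus strand.
C1qtnf7: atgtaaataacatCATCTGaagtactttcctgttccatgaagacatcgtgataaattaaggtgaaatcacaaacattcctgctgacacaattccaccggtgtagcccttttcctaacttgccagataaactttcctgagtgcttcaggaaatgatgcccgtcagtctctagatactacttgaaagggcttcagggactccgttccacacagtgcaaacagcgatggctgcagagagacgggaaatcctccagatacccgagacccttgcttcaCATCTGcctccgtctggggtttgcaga
Fam180a: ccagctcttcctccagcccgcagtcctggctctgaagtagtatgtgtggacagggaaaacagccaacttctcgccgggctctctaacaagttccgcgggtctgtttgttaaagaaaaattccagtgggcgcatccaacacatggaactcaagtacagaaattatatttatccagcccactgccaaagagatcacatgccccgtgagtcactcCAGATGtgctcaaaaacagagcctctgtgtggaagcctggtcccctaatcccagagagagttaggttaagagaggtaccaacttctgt
The matches in *C1qtnf7* begin 237 bases before and 24 bases after the start site, and the one in *Fam180a* begins 38 bases before it. Of all 32851 promoters of this length, 17.2% held the motif. A match is a description of the letters and not a measured binding site.

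*Gpx3* (chromosome 11, 54902453 to 54910377) encodes the secreted glutathione peroxidase of plasma, a selenoprotein that reduces hydroperoxides. It was by far the most abundant of the 10 genes. The libraries held 222, 234 and 258 CPM in *Ptprz1*+/+ and 154, 138 and 151 CPM in *Ptprz1*-/-. The replicates of each genotype lay close together, spanning 1.16-fold and 1.11-fold, and the difference was the smallest of the 10, at -0.69 on the log2 scale with a standard error of 0.13.

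All 3 genes of membrane-bound surface proteins were lower in the libraries labelled *Ptprz1*-/-. *Thsd7a* (chromosome 6, 12311610 to 12749410) encodes a transmembrane protein with thrombospondin repeats, known as an antigen of kidney podocytes. The wild-type libraries held 35.0, 22.0 and 28.6 CPM, the others 12.8, 15.3 and 10.2 CPM in the others. The gap between the groups was the narrowest of the 10, 1.44-fold between the nearest libraries, and the log2 difference was -1.16 with a standard error of 0.24. Of the 10 fibroblast markers 7 had a log2 difference below 0, and 1 of them, *Thy1*, was lower without overlap, at 313, 234 and 240 CPM against 112, 182 and 141 CPM. The fibroblast sum was between 24891 and 34387 CPM in *Ptprz1*+/+ and between 20495 and 34321 CPM in *Ptprz1*-/- libraries, and 0 of the 10 markers was at 0 in any library. The part of fibroblasts in the level of *Thsd7a* was not tested.

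*Bace2* (chromosome 16, 97356728 to 97439012) encodes a membrane-anchored aspartyl protease related to the beta-secretase of the amyloid precursor protein. Counts were 109, 256 and 245 in the *Ptprz1*+/+ libraries and 33, 26 and 64 in those labelled *Ptprz1*-/-. Normalized, they were 6.58, 14.1 and 15.5 CPM against 2.05, 1.78 and 4.23 CPM. Replicate 3 was the highest library of both genotypes, as it was for the endothelial sum, though not for each endothelial gene. The log2 difference was -2.16 with a standard error of 0.48, and it was -2.43 with both replicate 3 libraries left out.

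*Dpep1* (chromosome 8, 123186235 to 123201810) encodes a dipeptidase held on the cell surface by a lipid anchor, which cleaves the dipeptide left from glutathione and acts on leukotrienes. Its level was 55.8, 38.2 and 50.2 CPM in the *Ptprz1*+/+ libraries and 15.1, 17.0 and 23.8 CPM in the others. Each *Ptprz1*+/+ library was at least 1.60-fold above the highest library labelled *Ptprz1*-/-. The mean was 48.0 ± 8.97 CPM against 18.6 ± 4.59 CPM (SD, n = 3 each), a log2 difference of -1.37 with a standard error of 0.23.

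The enzyme of the Golgi apparatus and the vesicle GTPase showed the widest separation. *Hs3st1* (chromosome 5, 39613935 to 39755475) encodes the heparan sulfate 3-O-sulfotransferase that makes the antithrombin-binding sites of heparan sulfate. It had 250, 765 and 230 reads in the *Ptprz1*+/+ libraries, or 15.1, 42.1 and 14.5 CPM, and 37, 45 and 54 reads in the others, or 2.30, 3.09 and 3.57 CPM. Replicate 2 of the *Ptprz1*+/+ cells thus stood 2.90-fold above the lowest library of its group, and the lowest still stood 4.07-fold above the highest library labelled *Ptprz1*-/-. The log2 difference of -3.00 (standard error 0.50) became -2.31 without that library.

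*Rab3c* (chromosome 13, 110054187 to 110280206) encodes a small GTPase of vesicles in regulated secretion, best known from neurons and endocrine cells. Reads numbered 90, 251 and 146 in the *Ptprz1*+/+ libraries and 14, 16 and 18 in those labelled *Ptprz1*-/-. In CPM these were 5.44, 13.8 and 9.21 against 0.868, 1.10 and 1.19. No library of one genotype came within 4.57-fold of the other, and the log2 difference of -3.17 was the largest of the 10 in size, with a standard error of 0.42. It stayed between -3.44 and -2.80 with 1 library left out at a time. The 6 Schwann and neural markers summed to between 11.4 and 29.3 CPM and to between 7.63 and 14.1 CPM in the same order, and 4 of the 4 tested were below 0 in log2 difference, *Tubb3* without overlap. *Sox10* and *Snap25* were at 0 in some libraries, and the part of such cells in the level of *Rab3c* was not tested.

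For these 2 genes of the largest differences the promoters are printed on the same build, with capitals marking any of 6 motifs. The motifs searched on both strands were TATAAA for the TATA box, GGGCGG for the GC box, CCAAT for the box of that name, AGGTGT for T-box factors, CATCTG for Hand and Twist factors and CCGGAA for ETS factors. *Rab3c* lies on the minus strand at chr13:110280157-110280456. The RefSeq start of *Hs3st1*, at chr5:39644582-39644881 on the minus strand, lies 110844 bases inside the gene as the counts define it.
Rab3c: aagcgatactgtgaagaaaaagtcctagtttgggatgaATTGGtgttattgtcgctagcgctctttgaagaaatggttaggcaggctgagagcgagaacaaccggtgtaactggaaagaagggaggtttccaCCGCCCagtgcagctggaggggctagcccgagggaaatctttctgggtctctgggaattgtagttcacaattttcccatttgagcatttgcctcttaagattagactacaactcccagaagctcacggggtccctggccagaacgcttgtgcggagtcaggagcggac
Hs3st1: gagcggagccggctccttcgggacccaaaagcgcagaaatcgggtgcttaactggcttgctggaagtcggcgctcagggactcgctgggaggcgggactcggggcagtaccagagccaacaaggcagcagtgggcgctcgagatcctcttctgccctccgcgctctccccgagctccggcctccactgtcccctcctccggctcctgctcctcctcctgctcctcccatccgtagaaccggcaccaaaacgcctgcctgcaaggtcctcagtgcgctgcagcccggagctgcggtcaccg
*Rab3c* held a GC box (35.7% of all promoters) and a CCAAT motif (37.4%), and *Hs3st1* held 0 of the 6. *Hs3st1* was rich in G and C, at 67.0% beside a median of 52.7% over all promoters, and *Rab3c* was at 50.7%. Promoters were found for 8 of the 10 genes, 9 in number. TATAAA was in 0 of the 9 (13.6% of all promoters), AGGTGT in 0 (13.7%), and CCGGAA in 1 (14.9%), an internal start of *Bckdhb*. The 8 genes thus shared no single motif of the 6.

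Of the lysosomal and the mitochondrial enzyme, one was lower and one higher. *Ctsh* (chromosome 9, 90054152 to 90076089) encodes cathepsin H, a lysosomal cysteine protease that trims peptides from their amino end. Levels were 47.0, 36.1 and 38.4 CPM in the *Ptprz1*+/+ libraries and 15.2, 16.4 and 20.7 CPM in the others, with means of 40.5 ± 5.77 and 17.4 ± 2.92 CPM (SD, n = 3 each). The log2 difference was -1.21 with a standard error of 0.18. Alveolar epithelium and macrophages also carry much *Ctsh*. The 11 epithelial genes found in the table summed to between 57.5 and 104 CPM and to between 87.1 and 104 CPM, nearly all of it from *Abca3*, and *Sftpc* had at most 2 reads in any library. The 7 leukocyte genes summed to between 25.01 and 71.5 CPM and to between 25.3 and 37.0 CPM, with 4 of the 4 tested below 0 in log2 difference and 1, *Csf1r*, without overlap. Their part in the level of *Ctsh* was not tested.

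*Bckdhb* (chromosome 9, 83925145 to 84124240) encodes the beta subunit of the dehydrogenase that commits the branched-chain amino acids to breakdown in mitochondria. Wild-type libraries held 18.5, 14.7 and 18.2 CPM of it, and the libraries labelled *Ptprz1*-/- held 34.0, 30.3 and 28.5 CPM. Both groups were tight, spanning 1.26-fold and 1.19-fold, and the mean was 1.80-fold higher, a log2 difference of 0.85 with a standard error of 0.16. A stretch of 133 bases in *Bckdhb* transcripts was also found in *Rab3gap1* and *Slc38a6* at 99.2% identity and without a mismatch, respectively. Stretches of 133 and 137 bases matched the unlisted genes *Gm42860* at 99.2% and *Gm48161* at 98.5%. A part of the reads of *Bckdhb* is therefore uncertain. In *Ctsh*, 1019 bases matched the unlisted gene *Gm5398* at only 85.0%, and whether any of its reads are shared was not tested. For the other 8 genes no transcript of another gene aligned over at least 100 bases.

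**Figure D3:**
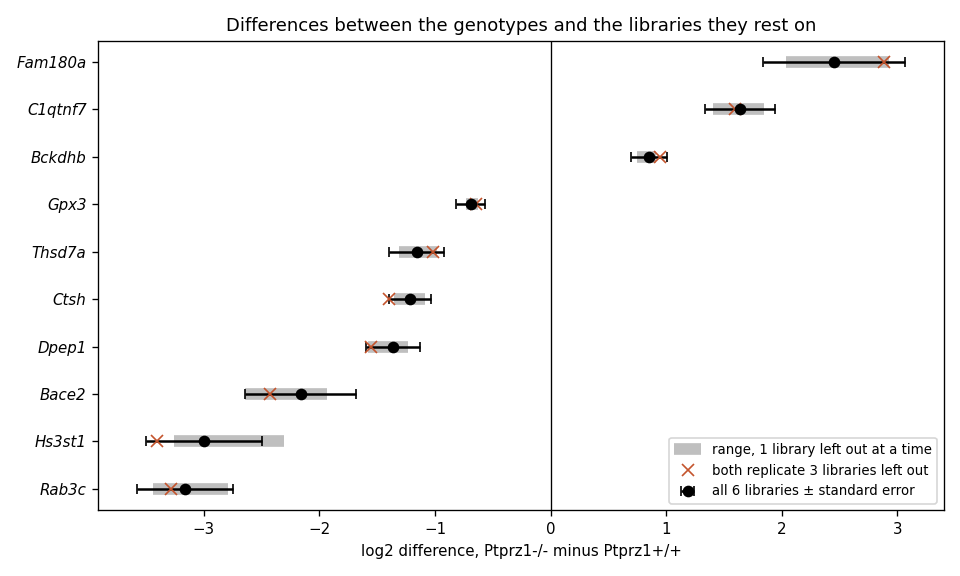
Log2 difference between the genotypes for the 10 genes. Black points and bars are the fit to all 6 libraries ± standard error, grey bands the range over 6 fits that each left out 1 library, and crosses the fit without both replicate 3 libraries. No band or cross reaches 0, which could hardly be otherwise for genes whose genotypes do not overlap. The widest bands belong to *Hs3st1* and *Fam180a*.

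Leaving out both replicate 3 libraries, in which endothelial RNA was highest, kept the direction of the 10 genes. As the genotypes did not overlap in any of the 10, leaving out libraries could hardly reverse a direction. Only the sizes are therefore informative. The differences then were -3.28 for *Rab3c*, -3.41 for *Hs3st1*, -2.43 for *Bace2*, -1.55 for *Dpep1*, -1.39 for *Ctsh*, -1.02 for *Thsd7a* and -0.65 for *Gpx3*. The 3 higher genes were at 0.95 (*Bckdhb*), 1.60 (*C1qtnf7*) and 2.89 (*Fam180a*). In the libraries that remain, the endothelial sums of the genotypes overlapped, with 131 and 95.8 CPM against 86.5 and 132 CPM. Most of each sum came from *Eng*, at 101 and 59.4 CPM against 59.6 and 115 CPM. *Pecam1* was lower without overlap in these libraries, at 3.81 and 4.40 CPM against 1.36 and 1.51 CPM. So was *Cdh5*, at 8.70 and 14.3 CPM against 3.60 and 7.41 CPM. *Tie1*, at 1.93 and 1.81 CPM against 0.806 and 0.686 CPM, was lower without overlap as well. The same held for *Erg*, at 0.846 and 0.770 CPM against 0.372 and 0.137 CPM. It also held for *Egfl7*, at 3.38 and 5.00 CPM against 2.36 and 1.24 CPM. Only *Tek* went the other way without overlap, at 1.33 and 0.660 CPM against 2.05 and 2.13 CPM. The remaining endothelial genes overlapped. The sums therefore do not show that endothelial RNA was matched. Over all 6 libraries 12 of the 12 endothelial genes had a log2 difference below 0, none without overlap, and 0 of them was at 0 in any library.

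Compared per length, as FPKM (reads relative to gene length and library total), the 10 genes differed widely in level. *Gpx3* led the *Ptprz1*+/+ libraries with 148 ± 10.3 FPKM (SD, n = 3), followed by *Dpep1* with 21.2 ± 3.47, *Ctsh* with 14.6 ± 1.90, *Hs3st1* with 14.2 ± 9.86 and *Bckdhb* with 11.5 ± 1.12. *C1qtnf7* was at 3.80 ± 0.940 FPKM, *Bace2* at 3.20 ± 1.28, *Thsd7a* at 2.56 ± 0.532, *Fam180a* at 1.37 ± 0.827 and *Rab3c* at 1.11 ± 0.523. The ranges of neighbours overlapped from *Ctsh* to *Bckdhb* and from *C1qtnf7* down to *Rab3c*, so the order within those stretches is not resolved. In the libraries labelled *Ptprz1*-/- the order became *Gpx3*, *Bckdhb*, *C1qtnf7*, *Dpep1*, *Fam180a*, *Ctsh*, *Hs3st1*, *Thsd7a*, *Bace2* and *Rab3c*, from 93.5 ± 10.2 to 0.125 ± 0.0204 FPKM (SD, n = 3 each). The ranges of neighbours overlapped there from *C1qtnf7* to *Ctsh* and between *Thsd7a* and *Bace2*, and the other neighbours did not overlap.

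The spread among the *Ptprz1*+/+ replicates, differed between the genes. By the SD of log2 CPM, *Gpx3* was at percentile 13.0 of the genes tested, *Bckdhb* at 30.0 and *Ctsh* at 32.8, whereas *Fam180a* was at percentile 91.9, *Hs3st1* at 88.2, *Bace2* at 81.9 and *Rab3c* at 81.8. The 4 genes with the largest log2 differences in size were thus also those whose *Ptprz1*+/+ replicates differed most. They were the 4 of the lowest mean log2 CPM among the 10 as well. Their percentiles of level were 17.3 (*Rab3c*), 21.6 (*Fam180a*), 23.9 (*Bace2*) and 29.5 (*Hs3st1*). The percentiles of spread were not matched for level, so spread and low level are not told apart here. Among the *Ptprz1*+/+ libraries replicate 2 was the lowest for 6 of the 10 genes, and among those labelled *Ptprz1*-/- replicate 3 was the highest for 6.

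The other genes of the same pathways and families were read next, from 8 lists in which 108 genes were tested. With edgeR 0 of the 108 were called in either direction, 6 had an unadjusted p under 0.05, and DESeq2 called 0. The 6 are 5.56% of the listed genes, beside 2.69% of all genes, and DESeq2's calls were 0.194% of all genes. In 7 of the 108 (6.48%) the genotypes did not overlap, beside 7.28% of all genes. With so few calls among all genes, 0 calls in the lists do not set them apart.

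Breakdown of the branched-chain amino acids was represented by 23 further genes, from the transaminases to propionyl-CoA carboxylase. Of these, 0 passed and 20 had a log2 difference below 0, with a median of -0.12 and a range from -0.41 (*Auh*, standard error 0.39) to 0.20. The highest was *Bckdha*, the alpha subunit that pairs with *Bckdhb* in one enzyme, at 42.8 ± 5.18 CPM in *Ptprz1*+/+ and 49.0 ± 5.55 CPM in *Ptprz1*-/- libraries (SD, n = 3 each).

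The cysteine cathepsins and their inhibitors had 12 genes tested, of which 0 passed, with a median of 0.11. *Lgmn*, the lysosomal asparaginyl endopeptidase, was the highest at 0.60 (standard error 0.23), and *Cst6*, a secreted inhibitor of such proteases, the lowest at -1.31 (standard error 0.52), both with overlapping genotypes. Among 17 genes of glutathione handling and selenoenzymes, again 0 passed, with a median of -0.007. *Dpep2*, a relative of *Dpep1*, had the highest log2 difference at 1.86 (standard error 0.68) but a mean of 0.262 CPM in *Ptprz1*+/+ and 0.964 CPM in *Ptprz1*-/- libraries. *Ggt7*, of the gamma-glutamyl transferase family, was lowest at -0.55 (standard error 0.17). These 2 and *Gclc*, the catalytic subunit of the first enzyme of glutathione synthesis, at 0.60 (standard error 0.24), did not overlap between the genotypes and were the 3 of the 17 with an unadjusted p under 0.05.

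Heparan sulfate synthesis and editing counted 16 tested genes, of which 0 passed, with a median of -0.081. *Sulf1*, which removes sulfate from heparan sulfate outside the cell, was the highest at 0.89 (standard error 0.27). Its level was 202, 167 and 119 CPM in the *Ptprz1*+/+ libraries and 378, 302 and 222 CPM in the others, without overlap, and its adjusted p was 1.00 with edgeR and 0.581 with DESeq2. *Ndst3*, an N-sulfotransferase, was lowest at -0.95 (standard error 0.95) and overlapped.

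Of 15 genes of the secretases and their substrates, 0 passed, and they ranged from -0.42 (*Aph1c*) to 0.39 (*App*, the amyloid precursor). Of 17 genes around Rab3 and regulated secretion, 0 passed, with *Sytl2* at -1.05 and *Sytl1* at 1.00 as the extremes. Both encode synaptotagmin-like proteins that tether secretory vesicles. Of 6 genes of C1q/TNF-related proteins and adiponectin receptors, 0 passed, from *Cdh13* at -0.87 to *C1qtnf2* at 0.84. *Thsd7b*, the paralog of *Thsd7a*, was too low to be tested, at a mean of 0.173 CPM in *Ptprz1*+/+ and 0.151 CPM in *Ptprz1*-/- libraries. Of 2 tested genes that share only thrombospondin repeats with it, 0 passed, with *Thsd4* at 1.36 (standard error 0.56) and without overlap, and *Thsd1* at -0.85 (standard error 0.46). *Thsd4* was thus higher while *Thsd7a* was lower in the same libraries, though the difference of *Thsd4* did not pass.

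**Figure D4:**
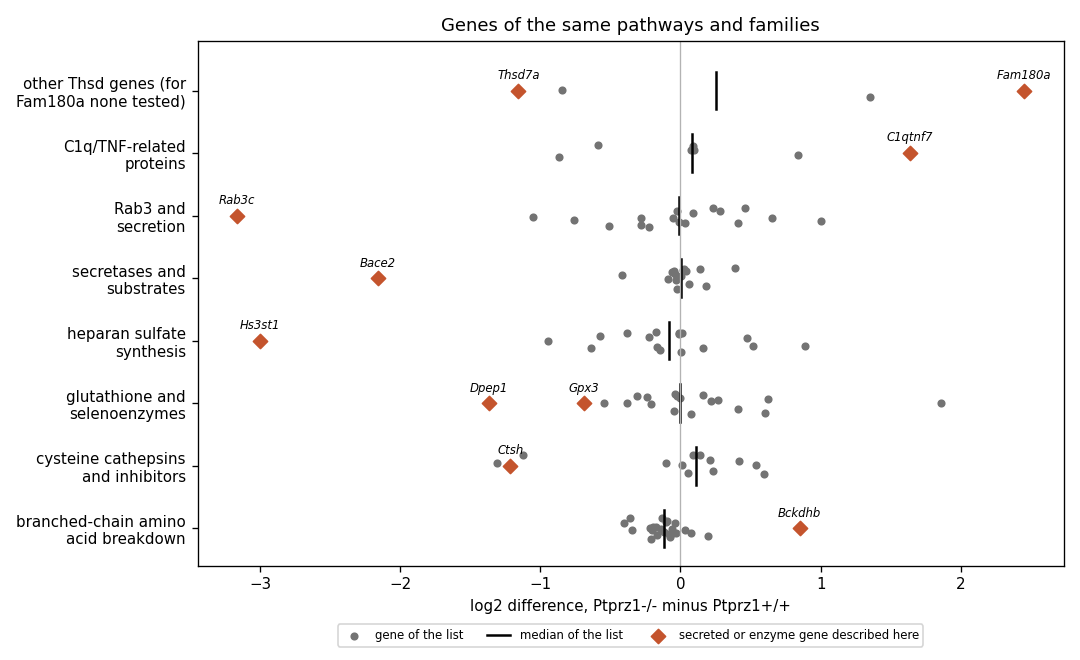
Log2 difference between the genotypes (horizontal axis) for the tested genes of 8 pathways and families. Grey points are listed genes, spread vertically for visibility, black bars their medians, and orange diamonds the 10 genes described here. Medians lie between -0.12 and 0.26, and the diamonds lie between -3.17 and 2.45.

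The 10 genes lie on 7 chromosomes, and 6 of them share a chromosome with another. *Hs3st1* and *C1qtnf7* are 3.76 Mb apart on chromosome 5, *Bckdhb* and *Ctsh* 5.93 Mb apart on chromosome 9, and *Thsd7a* and *Fam180a* 22.6 Mb apart on chromosome 6. Each of these 3 pairs held a lower and a higher gene. Between *Bckdhb* and *Ctsh* 24 genes were tested, of which 4 were lower without overlap (16.7%, beside 3.73% of all genes), and between *Hs3st1* and *C1qtnf7* 4 were tested, of which 0 were. With edgeR 0 genes of either stretch were called, and 3 and 1 had an unadjusted p under 0.05.

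*Thsd7a* and *Fam180a* flank the targeted gene, *Thsd7a* ending 10.1 Mb before *Ptprz1* and *Fam180a* beginning 12.3 Mb after it. Of 78 genes tested between them, *Ptprz1* included, 2 did not overlap between the genotypes (2.56%, beside 7.28% of all genes), both lower, with a median log2 difference of 0.025. *Rab3c* lies 9.06 Mb from *Nnt*, a gene that differs between mouse substrains, and of 30 genes tested between these 2, 3 were lower without overlap (10.0%, beside 3.73% of all genes). *Nnt* itself had 52.6, 62.9 and 49.5 CPM in wild-type and 63.8, 71.5 and 63.5 CPM in the other libraries, a log2 difference of 0.27 with a standard error of 0.14. *Nnt* was thus higher without overlap, though by only 1.01-fold between the nearest libraries. Whether these stretches came from different strains in the 2 genotypes was not tested.

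Within 1 Mb of the 10 genes, 108 other genes were tested. With edgeR 0 were called, 2 had an unadjusted p under 0.05, and DESeq2 called 0. The genotypes did not overlap in 11 of them (10.2%, beside 7.28% of all genes), and the median log2 difference was -0.036. The nearest tested genes of *Gpx3*, *Hint1* and *Tnip1*, were at 0.26 (standard error 0.14) and -0.47 (standard error 0.36). Those of *Ctsh*, *Tmed3* and *Morf4l1*, were at -0.21 (standard error 0.19) and -0.004 (standard error 0.12). *Chmp1a*, 2.5 kb from *Dpep1*, was at 0.058 (standard error 0.11), and *Sult5a1* on its other side at -0.69 (standard error 0.61). Of the 41 genes tested around *Dpep1*, 4 were lower and 1 was higher without overlap, beside 3.73% and 3.55% of all genes. Among the 4 was the neural marker *Tubb3*, 209.6 kb from *Dpep1*, at -1.12 (standard error 0.39). *Fam180a* lay between *1810058I24Rik* at 0.025 and *Mtpn* at -0.15, and *Thsd7a* between *Phf14* at -0.12 and *Tmem106b* at 0.096, with overlapping genotypes in these 4.

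*C1qtnf7* had *Cpeb2* at 0.27 and *Cc2d2a* at 0.034 as neighbours, both overlapping. *Gm15866*, which lies within the bounds of *C1qtnf7* without sharing exon bases, was at 1.22 (standard error 0.77) and higher without overlap, with a mean of 0.468 CPM against 1.09 CPM. *Rab3c* lay between *Pde4d*, listed under 2 identifiers at -1.03 (standard error 0.70) and -1.04 (standard error 0.65), and *Plk2* at 0.41 (standard error 0.42). *Bckdhb* had *Ttk* 52.8 kb before it at -1.46 (standard error 1.08), *Bace2* had *Mx2* after it at -0.28 (standard error 0.92), and for *Hs3st1* the 1 tested gene was *Zfp518b* at a distance of 929 kb, at -0.40 (standard error 0.17) and without overlap. The large differences of *Hs3st1*, *Rab3c* and *Bace2* thus stood in neighbourhoods of 1, 3 and 5 tested identifiers, of which *Pde4d* holds 2 of the 3 for *Rab3c*.

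**Figure D5:**
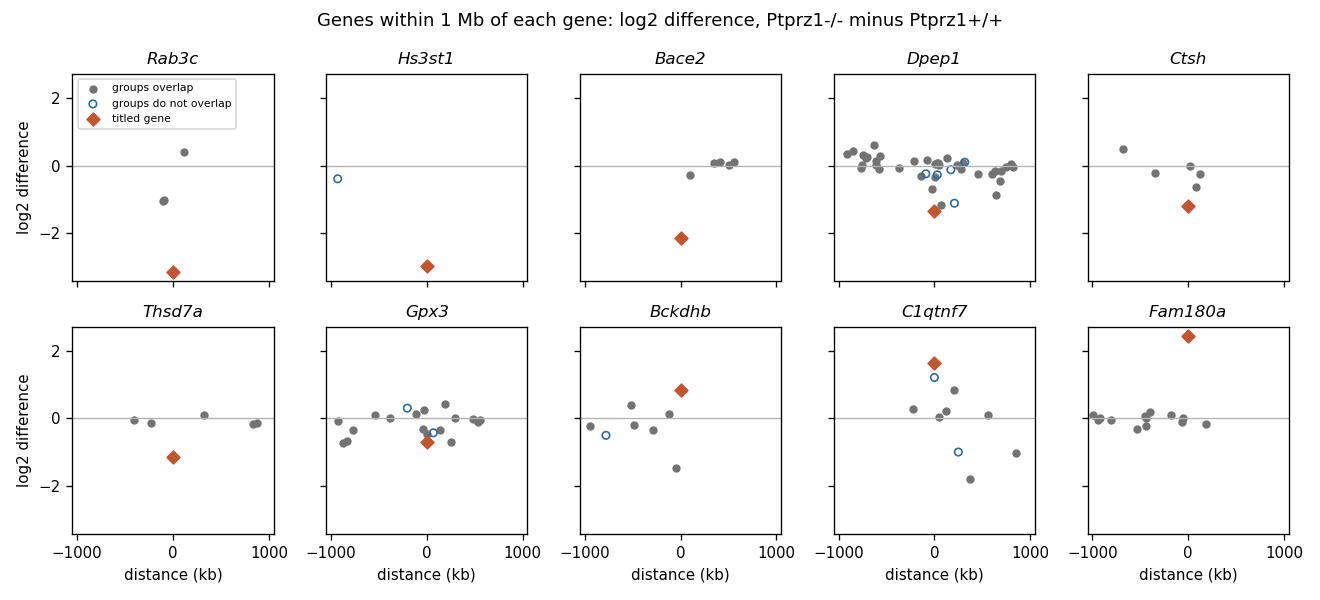
Log2 difference between the genotypes against distance from each gene in kb, for the genes tested within 1 Mb. Orange diamonds are the titled genes at distance 0, grey points genes whose genotypes overlap, open blue circles those whose genotypes do not. Of the 108 neighbours, 11 are open circles.

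The pattern over the 6 libraries was compared with that of every other gene tested, by the root mean square difference of log2 CPM after centring each gene on its own mean. As the genotype difference is part of this pattern, the measure is a description. *Bckdhb* was closest to *Gm14681* (0.119 log2 units) and *Gpx3* to *Gm9776* (0.127). *Ctsh* was closest to *Far1os* (0.190), *Dpep1* to *Cttnbp2* on chromosome 6 (0.245), *Thsd7a* to the fibroblast marker *Thy1* (0.257) and *Fam180a* to *D3Bwg0562e* (0.259). *Bace2* was closest to *Slfn3* (0.303) and *C1qtnf7* to *Cadm3* (0.408), while *Hs3st1* had the most distant nearest gene, *Slc7a8* at 0.478. *Rab3c* was closest to *Hand2*, a heart transcription factor, at 0.356, with 3.20, 5.83 and 6.69 CPM of *Hand2* in the *Ptprz1*+/+ libraries and 0.558, 0.480 and 1.06 CPM in the others.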

How the data were processed

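RNA of 3 *Ptprz1*+/+ and 3 *Ptprz1*-/- isolations was analysed from 1 table of 21999 genes. The authors deposited raw counts of reads per gene and library, and FPKM values computed from the same counts, the gene length and the library total. The submitters' processing notes name STAR, HTSeq, TopHat, DESeq2 and edgeR without roles or versions, and GRCm38. The use of strand and the annotation release are not given in the sources used here. The table's columns of the authors' own comparison (means, fold changes and p-values) and 3 lists of their called genes were not used. GENCODE M21 on GRCm38 holds 98.9% of the identifiers.

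Here, counts were normalized by TMM, filtered with filterByExpr and tested in edgeR 4.0.16 under R 4.3.3 (quasi-likelihood functions glmQLFit and glmQLFTest with a genotype term alone, Benjamini-Hochberg adjustment over 13609 genes, threshold 0.05). Standard errors are the absolute log2 difference divided by the square root of F. The functions were checked on simulated counts. FPKM served only to compare levels between genes. Shared transcript sequence was sought with minimap2 2.31 and shared exon bases, of which there were 0, with bedtools 2.31.1.

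The 10 genes, and all lists of related and marker genes, were chosen with earlier results of these data known. Besides the 10, the text names *Ptprz1*, *Nnt* and marker genes, the highest and lowest gene of each related list, the nearest tested gene on each side within 1 Mb (1000 kb), and the gene of the most similar pattern. *Gclc*, *Gm15866*, *Cd38*, *Tubb3* and *Csf1r* are also named for not overlapping, and *Thsd7b* as the paralog of *Thsd7a*, chosen after their values were seen. Alternatives were DESeq2 1.42.0, upper-quartile normalization, other filters on low counts, a block for the replicate number, leaving out each library or both replicate 3 libraries, a threshold of 0.1 and a window of 500 kb. The fewest reads behind a printed value of the 10 genes, 13 for *Fam180a* in 1 library, limit its precision.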

Additional observations from a re-analysis of the deposited data

How the results depend on the processing

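The number of genes called between the genotypes was 0 with edgeR and 31 with DESeq2. It was 0 with upper-quartile normalization, no filter, at least 10 counts in every library, both replicate 3 libraries left out, a threshold of 0.1 and the replicate block, and from 0 to 0 with each library left out. The genes at an unadjusted p under 0.05 numbered 366, and 676 without *Ptprz1*+/+ replicate 1, 553 with no filter and 690 with the replicate block. Same-numbered libraries correlated in their deviations from the group means at 0.446, -0.061 and 0.523, and unlike-numbered ones at between -0.568 and 0.092. Numbers 1 and 3 thus varied together across the genotypes and number 2 did not. The main fit did not take the numbers as pairs, and the replicate block is the alternative that does. Of 120 log2 differences of the 10 genes over the alternatives, 0 changed sign and 1 moved by more than the spread between replicates, that of *Hs3st1* to -2.31 without *Ptprz1*+/+ replicate 2. A change of sign was hardly possible, since the genotypes did not overlap in any of the 10. Among the related genes and the neighbours, 0 were called under each alternative, also within 500 kb, where 65 neighbours were tested.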
